A study of Tetranychus urticae with 4 samples.

Results

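In adult females of the spider mite Tetranychus urticae, 213 of 18020 listed genes had a moderate mean read level, a body-part ratio near that of the typical gene and little spread between whole bodies. The libraries came from the London strain, a laboratory strain of this plant-feeding mite, with no treatment given in the labels. The 3 whole-body libraries were each made from 100 intact adult females, and 1 library was made from the dissected proterosoma, the front part of the body, of 250 adult females. The labels do not say whether the whole-body pools came from separate cultures, so any p-value here sets a difference against a spread that could be technical. An intact body contains its own proterosoma, and there was no hind-body library.

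The genes were chosen by their level in CPM, the count of a gene scaled to a library total shared by all libraries. The mean CPM of the 4 libraries had to lie between 100 and 500. The ratio of proterosoma CPM to the mean whole-body CPM was divided by its median, 0.584, over the 8173 genes whose mean reached 10 CPM, and this scaled ratio had to lie between 0.8 and the inverse of 0.8. The highest whole-body CPM had to be under 1.2 times the lowest, and genes with at least 500 CPM in every library were left out. Of 1801 genes in the CPM range, 287 met the ratio limits, 1358 met the whole-body limit and 213 met both. The last condition removed 0 genes, since a gene with at least 500 CPM in every library has a mean of at least 500. Every one of these values comes from the same 4 libraries, so the levels and ratios of the chosen genes are described here and not tested.

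Genes with even expression across tissues are often called housekeeping genes, since many of them serve tasks that most cells share, such as protein synthesis, protein breakdown, energy supply and the cytoskeleton. A few of them serve as internal references when RNA levels are compared between samples. In spider mites the proterosoma carries the mouthparts, the silk and salivary glands and the central nerve mass, and the hind body holds most of the gut and the ovary. A gene used in all of these tissues could be read at a like level in both kinds of library, but an even ratio of tissue mixtures does not show that each cell type expresses it evenly. The deposited files give identifiers without names, and 0 of the 18020 identifiers had an entry in the RefSeq gene table used for names. No role is therefore given to any gene here, and markers of the body parts were not used.

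The libraries held 11630954 to 23647775 counts over all genes. With 3 counts taken as the most that a count of 0 leaves possible, a gene without reads is limited to between 0.127 and 0.258 CPM, depending on the library. The chosen genes lay far above that limit, with at least 1132 counts for any of them in any library. At that lowest count, counting error alone gives a coefficient of variation of 2.97%; both limits are for counting error alone, as reads were not tagged with molecular identifiers.

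The most abundant of the chosen genes was tetur09g06700. It stood at 520.2, 606 and 516 CPM in whole-body replicates 1, 2 and 3 and at 259.8 CPM in the proterosoma library. Replicate 2 was the highest whole body, and the proterosoma value lay below all of them, also after division by the median ratio, which gave 445 CPM. Its scaled ratio was 0.812, close to the lower limit, and its whole-body maximum was 1.18 times the minimum.

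The gene nearest to the median level, tetur02g05750, had 162, 166 and 154 CPM in the whole bodies and 99.6 CPM in the proterosoma library. After division by the median ratio the proterosoma value was 170.4 CPM, just above the highest whole body, for a scaled ratio of 1.06. The whole-body mean was 161 ± 5.99 CPM (SD, n = 3).

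The steadiest gene among whole bodies was tetur03g07630, at 237, 238 and 238 CPM, with 152 CPM in the proterosoma library. Its coefficient of variation over whole bodies was 0.324%, below the 1.71% that counting error alone gives at its read numbers. So small a spread is finer than the read numbers can resolve. Its scaled ratio was 1.09.

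The gene whose body-part ratio was closest to the median gene was tetur13g01870. It was read at 129.9, 142 and 123 CPM in the whole bodies and at 76.8 CPM in the proterosoma library. Divided by the median ratio, the proterosoma value became 131 CPM and fell within the whole-body range, for a scaled ratio of 0.998.

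At the upper edge of the ratio limits stood tetur03g05200 and tetur20g01450. The former had 122, 107 and 105 CPM in the whole bodies and 81.1 CPM in the proterosoma library, and its scaled ratio was 1.248. The latter had 143, 142 and 131 CPM in the whole bodies and 101 CPM in the proterosoma library, and its scaled ratio was 1.247. On plain CPM both were lower in the proterosoma library than in every whole body; divided by the median ratio, at 139 and 173 CPM, both were higher than every whole body.

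At the lower edge stood tetur05g07800 and tetur32g01800. The former was the more abundant, at 440.5, 483 and 459 CPM in the whole bodies and 215 CPM in the proterosoma library. The latter had 191, 179.8 and 177 CPM in the whole bodies and 85.5 CPM in the proterosoma library. Their scaled ratios were 0.8004 and 0.8008, and the proterosoma values lay below every whole body on plain CPM and after division by the median ratio, at 369 and 146 CPM.

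**Figure D1:**
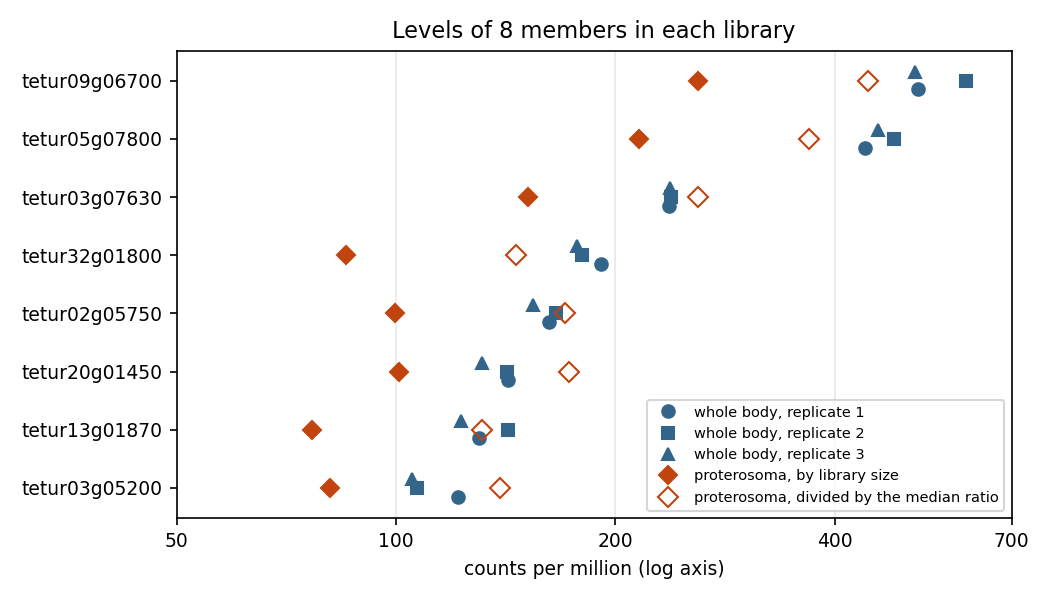
CPM (log axis) of the 8 named genes in each library: filled blue symbols are the whole-body libraries, filled red diamonds the proterosoma library scaled by library size, and open diamonds the same value divided by the median ratio of 0.584. The filled diamonds lie below all blue symbols for all 8 genes, and the open ones lie above, among or below them depending on the gene.

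Genes lay close to most limits on both sides. The lowest scaled ratio inside was 0.8004 and the nearest below the limit was 0.7984; the highest inside was 1.2484 and the nearest above was 1.2504. For the whole-body maximum over minimum, the values on either side of the limit were 1.1969 and 1.2002. The lowest mean level inside was 100.01 CPM, against 99.55 CPM just outside. At the upper level limit, the values on either side were 475.5 and 552.6 CPM. At each limit these are genes that met all the other limits; without them, genes of the CPM range reached 499.8 CPM.

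**Figure D2:**
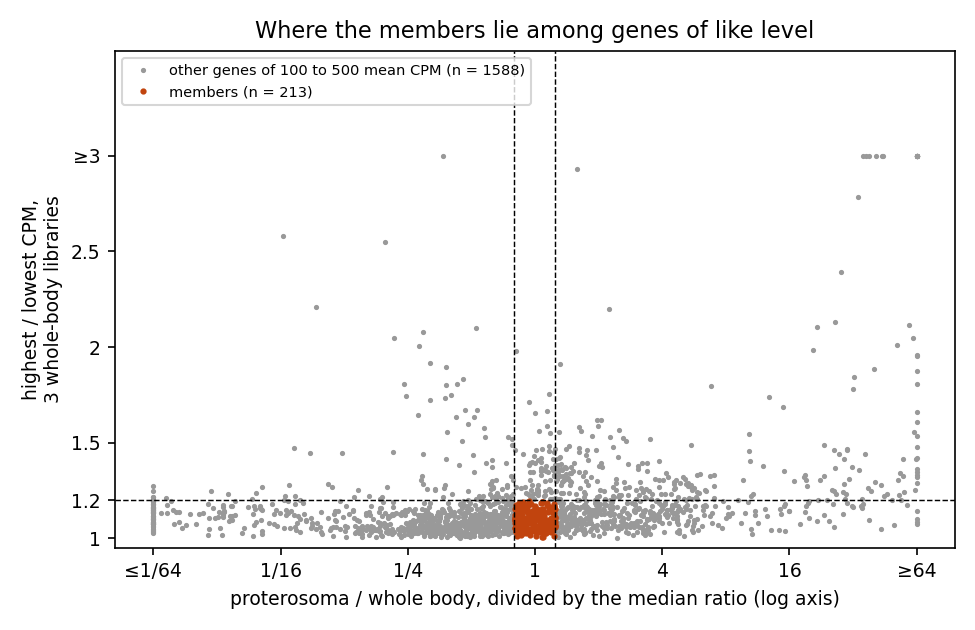
Each of the 1801 genes of 100 to 500 mean CPM is plotted by its scaled ratio of proterosoma to whole body (horizontal, log axis) and by its whole-body maximum over minimum CPM (vertical); dashed lines are the limits, and values past 64-fold or 3-fold are drawn at the edge. The 213 chosen genes (red) fill a box inside a cloud with no gap at the limits.

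Most of the chosen genes were at the low end of the CPM range, where many other genes of the range also lay. Their mean level was 145 CPM at the median and ran from 100.01 to 475 CPM. Under 150 CPM lay 113 of the 213, and 803 of all 1801 genes of the range. The other 1588 genes of the range had a median of 162 CPM. As a group the 213 took 4.19%, 4.10% and 3.98% of the reads of whole-body replicates 1, 2 and 3, or 4.09% ± 0.109 (SD, n = 3), and 2.41% of the proterosoma reads. The share was thus lower in the proterosoma library than in each whole body, as the choice of genes fixes. A share of reads is relative, so it also falls where other genes take more of the reads. In these bulk samples, such a shift, fewer cells of a type and less RNA per cell cannot be told apart.

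**Figure D3:**
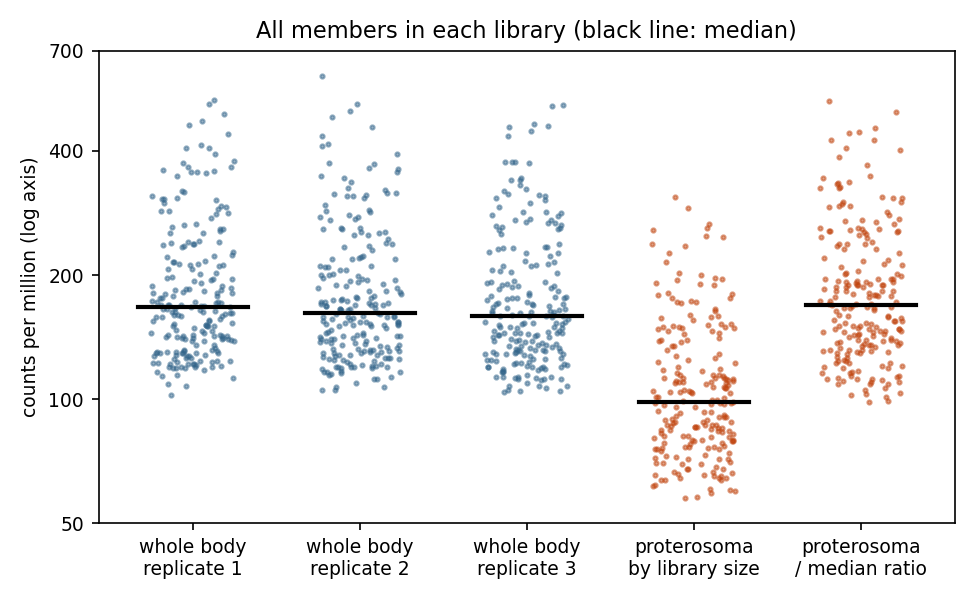
CPM (log axis) of all 213 genes in each library, with the median as a black line. The medians were 167, 161 and 159 CPM in the whole bodies and 98.6 CPM in the proterosoma library by library size; the last column divides the proterosoma values by the median ratio.

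Whether these genes were even between the body parts depended on the scaling. By library size alone, all 213 were lower in the proterosoma library than in every whole body, as were 65.7% of the 8173 genes that reached a mean of 10 CPM; for the 213, the limits of the choice make this certain. Their ratio of proterosoma to whole body then ran from 0.468 to 0.729. With the median ratio as the scale, the proterosoma value was above every whole body for 97 genes, below every whole body for 79 and within their range for 37. Among all genes of at least 10 CPM the shares were 47.8%, 47.3% and 4.88%, and since the ratio limits chose the 213, nothing is read from the difference.

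Scalings built for comparing libraries gave values between these. Which scale suits these libraries was not tested. TMM, edgeR's scaling by trimmed means, gave a median log2 ratio of -0.19 over the 213 genes, with a range from -0.53 to 0.12; 171 were below 0 and 42 above. DESeq2's size factors gave a median of -0.20, with 174 below 0 and 39 above. By library size alone the median was -0.76 and all 213 were below 0, and with the median ratio it was 0.017 with 99 below and 114 above. On the TMM scale, 147 of the 213 (69.0%) had a ratio between 0.8 and its inverse.

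**Figure D4:**
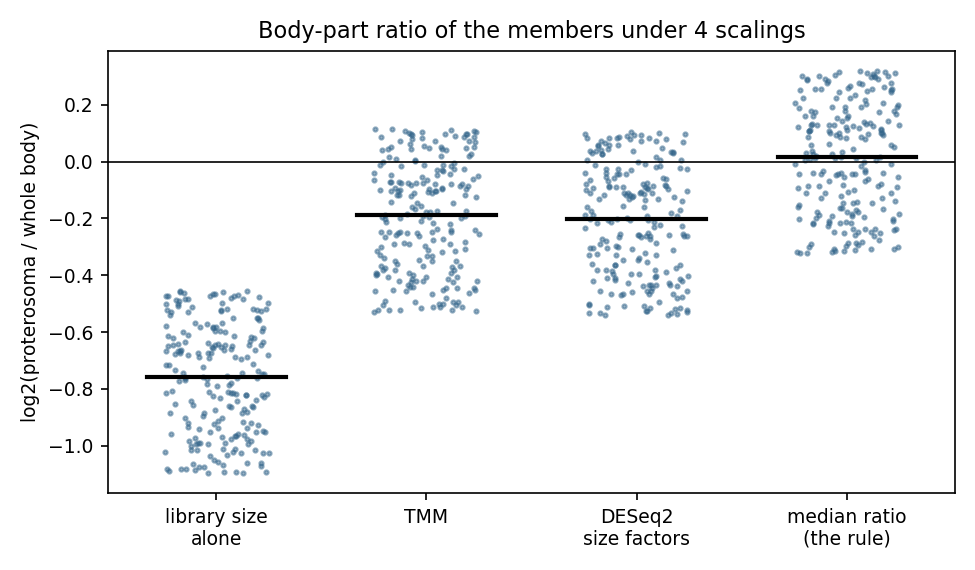
Log2 ratio of proterosoma to the whole-body mean for the 213 genes under 4 scalings, 1 point per gene, with the median as a black line and equal levels at 0. The scaling moves all genes together: the cloud lies wholly below 0 by library size alone and around 0 only on the scale used to choose the genes.

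The edgeR quasi-likelihood test with TMM scaling compared the proterosoma library with the 3 whole bodies. It called 89 of the 213 genes lower and 0 higher at an adjusted p under 0.05, where it called 81.4% of all 13278 tested genes, 41.0% higher and 40.4% lower. At an unadjusted p under 0.05 there were 92, against 82.6% of all tested genes. The choice of genes used this contrast, so nothing is read from these counts against the background. On the TMM scale the median gene of at least 10 CPM stood at a log2 ratio of -0.21. A gene with a scaled ratio near 1 thus already lay below 0 on that scale. The split of calls by scaled ratio largely follows from this offset, and nothing is read from it either. All 89 called genes had a scaled ratio below 1, out of 99 such genes, and 0 of the 114 genes above 1 were called. Fitted by library size alone, the test called all 213 lower, where it called 83.4% of all tested genes, 31.2% higher and 52.2% lower. With the median ratio as the scale, it called 25 higher and 13 lower, where it called 80.5% of all tested genes, 44.5% higher and 36.0% lower.

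The standard error of a log2 fold in the TMM fit had a median of 0.09 over the 213 genes. Only whole bodies supplied the spread (2 residual degrees of freedom). The test also drew each gene's spread toward that of the other tested genes (3.82 prior degrees of freedom). A standard error is therefore not the gene's own spread alone. The same spread was taken for the single proterosoma library, whose side of each ratio has no replicate check. Of the named genes, tetur20g01450 had a fitted log2 fold of 0.11 ± 0.08 (standard error), and tetur32g01800 had -0.53 ± 0.08. For tetur13g01870, whose scaled ratio was 0.998, the TMM fit gave -0.21 ± 0.10.

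In the authors' deposited table, 72 of the 213 genes had an adjusted p under 0.05, all of them lower in the proterosoma library, against 61.6% of the 15877 genes in that table. All 72 were also among the 89 called by edgeR. The log2 folds of the 213 in the authors' deposited table ran from -0.54 to 0.10 with a median of -0.20. The authors' deposited table listed tetur03g07630 at -0.09 ± 0.13 and tetur05g07800 at -0.54 ± 0.15 (the authors' standard error).

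Part of the chosen genes were also taken under other settings. The same limits applied to TMM-scaled CPM, with the ratio not divided further, took 216 genes, 142 of them among the 213. With DESeq2 size factors they took 212 genes, 138 of them shared. With library size alone and no division, they took 122 genes and shared 0 with the 213. The choice of the 213 makes this lack of overlap certain, so nothing is read from it. Their undivided ratios ran from 0.468 to 0.729, all below the lower ratio limit. A median ratio taken over genes of at least 1 CPM left 164 of the 213, and one over genes of at least 50 CPM left 153. When the whole bodies were left out singly, 171 of the 213 were chosen again every time, and 131 of these were also chosen under both TMM and DESeq2 scaling, the other medians not being asked for. The 131 had a median level of 152 CPM, with scaled ratios from 0.933 to 1.247. The named genes tetur02g05750, tetur03g07630, tetur13g01870 and tetur20g01450 belonged to the 131 and the other 4 did not.

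The limit on whole-body spread fixes how far the whole bodies differ for the chosen genes, so their spread is given as a description. The coefficient of variation over the 3 libraries had a median of 4.69% and a highest value of 9.37%, where counting error alone gives a median of 2.08%. For 25 of the 213 genes it was at or below the counting value. The same count was not made for other genes of the CPM range, so nothing particular to the 213 is read from it. The chi-square statistic of the 3 counts per degree of freedom had a median of 5.56, where pure counting error gives a mean of about 1. The 1145 genes of the CPM range that met the whole-body limit but not the ratio limits had medians of 4.44% and 5.03 for these measures.

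Replicate 1 was the highest whole body for 137 of the 213 genes and replicate 3 the lowest for 131, and 91 genes (42.7%) had both. The other 1588 genes of the same CPM range had replicate 1 highest in 53.1%, replicate 3 lowest in 58.8% and both in 37.5%. Across the 8173 genes of at least 10 CPM, replicate 1 was 1.05 times and replicate 3 0.953 times the mean of the other whole bodies at the median. With TMM scaling the whole-body maximum over minimum of the 213 genes fell from a median of 1.09 to 1.07, and 4 of them then reached 1.2.

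Tested singly against the other whole bodies with edgeR, replicates 1, 2 and 3 each gave 0 calls among the 213 genes at an adjusted p under 0.05. Among all 12228 genes tested, 0, 1.54 and 0.00818% were called. At an unadjusted p under 0.05 there were 2, 0 and 3 of the 213, against 1.95%, 6.42% and 8.95% of all genes tested. The DESeq2 Wald test also gave 0 calls among the 213 in each, and called 0.00647%, 0.544% and 0.175% of the 15453 genes it tested. The limit on whole-body spread used these libraries, so these counts say nothing further about the genes.

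A whole-body library that took no part in the choice gives a separate reading. Chosen again without replicate 1, the rule took 212 genes, and replicate 1 lay within 1.2-fold of the mean of the other whole bodies for 208 of them (98.1%). Chosen without replicate 2, it took 218 genes, and 207 (94.95%) held in replicate 2. Chosen without replicate 3, it took 287 genes, and 222 (77.4%) held in replicate 3, the lowest fold being 0.555.

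The same reading was made for genes of the CPM range that met the whole-body limit in the other libraries but not the choice as a whole. Of these, 95.5% held in replicate 1, 93.3% in replicate 2 and 89.8% in replicate 3. Set beside these, the share of the chosen-again genes was the larger for replicates 1 and 2 and the smaller for replicate 3, and no test of these differences was made. On TMM-scaled CPM, 206, 204 and 232 of the chosen-again genes held in replicates 1, 2 and 3. These counts are given without a total, so they are not set against the shares above. The proterosoma has 1 library, so its side of the ratio could not be read in this way.

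The ratio limits and the whole-body limit were also set side by side, as a description, since both chose the genes. Of the 287 genes of the CPM range inside the ratio limits, 74.2% met the whole-body limit, against 75.6% of the 1514 genes outside them. The share depended on the side. It was 84.7% to 90.4% for genes with scaled ratios from 1/8 to 0.8, and 87.0% below 1/8. It was 63.3% to 69.6% for ratios above the limits and under 8, and 36.7% for ratios of at least 8. Whole-body read numbers moved with this: the lowest of the 3 whole-body counts had a median of 1905 for genes inside the limits and 419 for genes with ratios of at least 8, and the part of depth in the shares was not tested. Genes with ratios of at least 8 had a median whole-body mean of 40.9 CPM and so reached the CPM range largely through the proterosoma library.

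**Figure D5:**
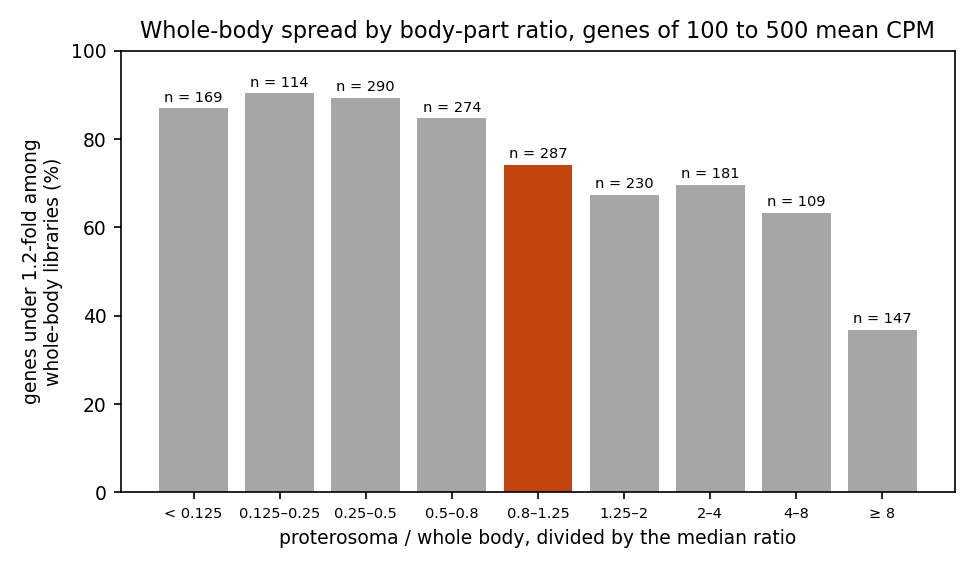
Share (percent) of genes of 100 to 500 mean CPM whose whole-body libraries lay within 1.2-fold of each other, by scaled ratio of proterosoma to whole body, with the number of genes above each bar; the red bar holds the 213 chosen genes and the 74 that met the ratio limits alone. The red bar stands at 74.2%, between the higher shares on its left and the lower ones on its right.

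The whole-body limit was met less often at higher levels. It held for 84.1% of the 803 genes of 100 to 150 mean CPM and for 47.8% of the 90 genes of 400 to 500. The chosen genes made up 14.1% of the former and 5.56% of the latter, and 11.8% of the whole range. Of the 53 genes with at least 500 CPM in every library, 13.2% met the ratio limits, 45.3% the whole-body limit and 3 genes both. Whole-body read numbers went the other way: the lowest of the 3 counts had a median of 1517 for genes of 100 to 150 mean CPM and 4720.5 for genes of 400 to 500.

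Position in the genome was not used to choose the genes. Scaffold and serial number were read from the identifiers and not checked against an annotation. The 213 genes lay on 40 of the 428 scaffolds listed, with 25 on scaffold 1, 18 on scaffold 4 and 16 on scaffold 2. Most scaffolds listed held no gene of the CPM range, so none of the 213 could lie there. Scaffolds 1, 4 and 2 had 155, 96 and 148 genes of that range. The chosen genes were 16.1%, 18.8% and 10.8% of these, against 11.8% of the whole range. On the 30 scaffolds with at least 20 genes of the CPM range, the chosen genes made up between 3.33% (scaffold 21) and 18.8% (scaffold 4) of those genes. In identifier order, 2 of the 213 were next to each other, as 1 pair, and the other 211 had no chosen neighbour. A chosen gene was the next neighbour for 0.939% of the 213, for 3.53% of the other 1588 genes of the CPM range and for 2.35% of all other listed genes. Within 5 places, 17.8% of the 213 had another chosen gene, against 14.7% of the 1588 and 10.9% of all other listed genes.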

How the data were processed

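RNA of 3 whole-body libraries and 1 proterosoma library was sequenced with a strand-specific protocol, per the labels' protocols. The deposited gene table holds raw counts per gene. Per the submitters' processing notes, the tools were STAR 2.5.0b, HTSeq 0.6.0 and DESeq2 1.6.3, with no role stated. Build, annotation, strand setting and treatment of multi-mapping reads: not given in the sources used here, so near-identical, overlapping or antisense genes may share reads. The authors' deposited comparison table holds, per its header, a normalised signal averaged per gene, log2 fold changes with errors, a test score, and p-values with adjusted p-values. Its direction was read from the counts: its positive folds of 2 or more were higher in the proterosoma library and its negative ones lower, for 100% of such genes.

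Each sample column was matched by title, and 0 were unused. No pair of whole-body libraries agreed within sampling noise (chi-square per degree of freedom over genes of at least 12.8), which does not tell separate pools from separate preparations of 1 pool. CPM used library totals unless TMM is named. All 4 libraries entered 1 edgeR 4.0.16 model with body part as its term (quasi-likelihood F test, TMM, edgeR's expression filter, Benjamini-Hochberg adjustment, R 4.3.3). All 213 genes passed that filter. The standard error is the log2 fold divided by the square root of F. Each whole body was also tested against the others. The test was checked on simulated counts. Alternatives were other scalings, filters, DESeq2 1.42.0, limma-voom (limma 3.58.1), other limits for choosing genes, and the omission of each whole body.

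The genes were chosen with earlier results of these data known. The rule for named genes took the most abundant, the one nearest the median level, the one with the smallest whole-body spread, the one with the ratio nearest to the median gene, and 2 at each end of the ratio limits. Lists by gene product were not used, since no identifier matched a name.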

Additional observations from a re-analysis of the deposited data

How the results depend on the processing

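The number of chosen genes depended on the limits. Ratio limits of 0.67 to 1.5 gave 382 genes and limits of 0.9 and its inverse, rounded to 2 decimals, gave 95. A whole-body limit of 1.1 gave 122, and library size alone without division of the ratio also gave 122. Leaving out each whole body gave 212 to 287 genes, and the median ratio itself was 0.643 over genes of at least 1 CPM and 0.518 over genes of at least 50. Of the 213 genes, 89 were called between body parts with TMM, 213 with library size alone and 38 with the median ratio as the scale, beside 81.4%, 83.4% and 80.5% of all tested genes; leaving out each whole body gave 61 to 90, and the other fits 62 to 96, all lower in the proterosoma library except for 2 higher genes when a mean count of at least 50 was required, beside 61.1% to 84.3% of all tested genes in these 9 fits. Their median log2 ratio was -0.19 with TMM, -0.76 with library size alone and 0.017 with the median ratio, as a scaling shifts all genes of a library by 1 factor. The log2 folds of all 8 named genes moved by more than their whole-body spread under those 2 scalings. Genes with a chosen neighbour numbered 2 next door and 38 within 5 places, since the wider window holds more genes. In total 83 of 109 alternative values stayed within 1.5 times the reported count or within the spread of the whole bodies. For the chosen genes this compares only how many there were, not which genes they were. No paired analysis was possible because only whole bodies have replicate numbers; there was 1 proterosoma library. At these depths counting error is at most 2.97% for the level of any chosen gene in any library; the error from having 1 proterosoma library was not measured.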

Other observations

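The 74 genes of the same level that met the ratio limits but not the whole-body limit often had replicate 3 as the lowest whole body and replicate 2 as the highest. Replicate 3 was the lowest for 56 of them (75.7%), and replicate 2 was the highest for 45. Both held for 41 of the 74 (55.4%), against 18.8% of the 213 genes that met both limits and 17.4% of the 1145 genes that met the whole-body limit alone. Both groups set beside the 74 met the whole-body limit, and genes that missed both limits were not counted apart. The order may thus go with a large spread as well as with the ratio limits. The 74 genes were chosen for a large whole-body spread, so the spread itself is no finding, and the order was noticed after the values were seen and was not tested. Their median mean level was 236 CPM, against 145 CPM for the 213 genes, and their whole-body maximum over minimum had a median of 1.35 and a highest value of 1.98. The rule without replicate 3 took 287 genes, of which 188 were among the 213.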
